A study of Caenorhabditis elegans with 2 samples.

Results

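The cytosolic ribosome of *C. elegans* was examined through the genes for its proteins. All genes whose WormBase symbol is *rpl-* or *rps-* plus a number were taken, together with *rla-0*, *rla-1* and *rla-2*. This gave 81 genes of the 46904 genes listed. By symbol they are 31 *rps* genes of the small subunit, 47 *rpl* genes of the large subunit and 3 *rla* genes of the stalk. RefSeq gives *rpl-24.2*, counted among the *rpl* genes, the name of an assembly factor, as described below. The rule uses symbols and no expression value, although the set was taken up with earlier results of these data known.

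The study asked which host pathways depend on *pdxH*, the *E. coli* gene for the enzyme that makes the active form of vitamin B6, when worms develop on *L. plantarum*. Whole worms of the wild-type strain N2 were fed *L. plantarum* plus a trace of *E. coli*, 0.2 µl in volume. This *E. coli* was either the wild-type strain BW25113 or a *pdxH* mutant of it. Total RNA was extracted, and cDNA libraries made from it were sequenced. The labels give 1 stage for the worms of either diet, without naming it. The study reports that worms given a trace of the *pdxH* mutant with *L. plantarum* arrested early. How far developmental progress differed between the worms sequenced was not tested. By the study's methods deletion strains were cultured with kanamycin and the wild type without, so strain and bacterial culture medium cannot be told apart. Each diet had 1 library, so no replicate error could be measured and no difference between diets was tested. Intervals given below cover counting error only.

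A ribosome has a small subunit, which binds the mRNA and reads its codons, and a large subunit, which joins amino acids into protein. Each subunit is built from ribosomal RNA and one copy of most of its proteins, so cells make these proteins in similar molar amounts. Growing animals devote much of their transcription and translation to making ribosomes, and the mRNAs of ribosomal proteins belong to the most abundant in a cell.

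The wild-type *E. coli* library held 40707752 reads assigned to genes and the *pdxH* library held 46372171. Of the 46904 genes, 23141 had at least 1 read. Levels are given as reads and, between genes, as reads per kilobase of exon per 1000000 reads. Ratios are log2 values of *pdxH* over wild type after scaling to the library totals, with a pseudocount of 1 on the deposited scale, which is slightly less than the worth of 1 read in either library. The median log2 ratio over all genes with reads was 0.0042. All 43 marker genes of 6 tissues had reads in both libraries. The summed markers, per 1000000 reads, went from 373 to 266 for the germline, from 846 to 414 for the hypodermis, from 5300 to 4297 for the intestine and from 10293 to 9075 for body wall muscle, each time from wild type to *pdxH*. The neuronal markers went from 1593 to 1987 and the pharyngeal markers from 1729 to 1713. The intestinal sum is mostly that of *asp-1* (117738 and 111336 reads, log2 ratio -0.27). Of the 8 intestinal markers 7 lay below 0, from *cpr-1* (-0.79) to *elt-2* (-0.064), and *ges-1* was at 0.0032. Of the 10 germline markers 9 lay below 0, from *him-3* (-1.22) to *mex-3* (-0.086), and *rme-2* was at 0.23. The pharyngeal sum is mostly that of *myo-1* and *myo-2*, with log2 ratios of -0.058 and -0.038. The other pharyngeal markers, *phat-1*, *tnc-2* and *pqn-75*, differed more and in both directions, with -1.47, 0.32 and 0.46. The hypodermal sum is mostly that of the cuticle collagens *rol-6* (22504 and 10150 reads) and *dpy-7* (5497 and 2745), while the regulators *lin-26*, *nhr-23* and *elt-1* had log2 ratios of -0.27, -0.27 and 0.17. No marker was at 0, although the adult collagen *col-19* had 29 reads and 1 read. In RNA of whole animals, fewer cells of a type and less RNA per cell cannot be told apart, and the part of these marker differences in the ribosomal protein values was not tested.

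The ribosomal protein genes took nearly the same part of the reads assigned to genes on both diets. They held 5039192 reads on wild-type *E. coli*, which is 12.4% of that library (exact binomial 95% interval 12.37% to 12.39%). On the *pdxH* diet they held 5828153 reads, or 12.6% (12.56% to 12.58%). Small-subunit genes made up 5.06% and 5.16% of reads on wild type and *pdxH*, large-subunit genes 6.82% and 6.92%, and stalk genes 0.495% and 0.488%. The genes crowded the top of the expression range. Of the 100 genes with most reads, 47 were ribosomal protein genes on wild type and 44 on *pdxH*.

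No ribosomal protein gene had a log2 ratio over 0.5 or under -0.5. Among all genes with reads, 37.3% lay past 0.5 in either direction. This share falls with read number, to 8.2% of genes with at least 1000 reads over both libraries and to 7.03% of genes with at least 10000 reads, the range of 77 of the 81 members. The median log2 ratio of the 81 genes was 0.021, and 58 lay above 0 and 23 below. The share above 0 was 50.4% of all genes with reads and 55.4% of genes with at least 10000 reads. Apart from *rpl-42*, which had 3 and 5 reads, the ratios ran from -0.14 for *rpl-11.1* to 0.17 for *rpl-24.2*. Below *rpl-24.2* the next highest ratio was 0.11, for *rps-16*.

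The members lay close together. Of the 81 genes, 71 (87.7%) were within 0.1 of a log2 ratio of 0, against 20.1% of all genes with reads, 38.9% of genes with at least 1000 reads and 42% of genes with at least 10000 reads. The 77 members with at least 10000 reads had an SD of log2 ratios of 0.049, and the 1587 other genes in that range had an SD of 0.32 around a median of 0.020. These others ran from -1.91 to 1.31. The SDs describe spread between genes, not between worm cultures.

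The median distance from a member's ratio to the edge of its 95% interval was 0.016 on the log2 scale, over the 80 genes with at least 100 reads. The median member ratio, 0.021, is of similar size, but this distance holds for single genes and not for the set. For the set, the counting intervals of the summed share of reads, given above, did not overlap between the libraries. The single-gene interval lay wholly above 0 for 46 members and wholly below 0 for 14, and it included 0 for the rest. Over all genes with reads the same was true of 18.8% and 17.9%, and among genes with at least 10000 reads of 45.2% and 36.8%, so an interval clear of 0 was common for any gene read this deeply. An exact binomial test of the reads, which compares these libraries and not the diets, put 42 members higher and 12 lower on *pdxH* at a Benjamini-Hochberg adjusted p of 0.05. It did so for 14.3% and 14.4% of all genes with reads and for 42.5% and 34.4% of genes with at least 10000 reads. How far 2 libraries of the same diet would differ is not known from these data.

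**Figure D1:**
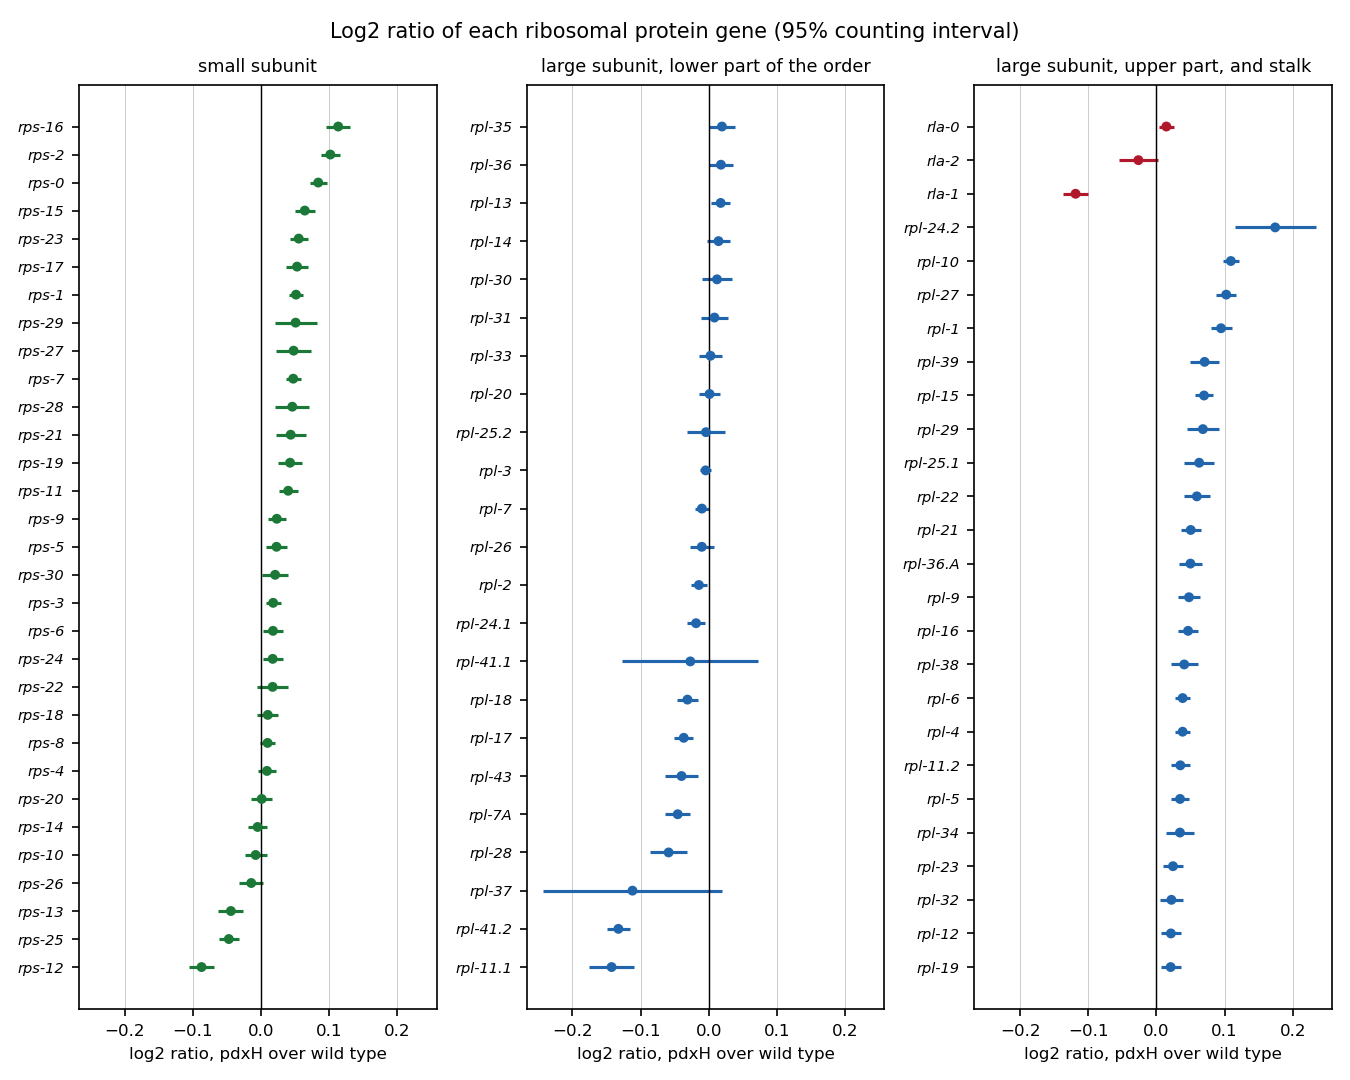
Log2 ratio of *pdxH* over wild-type *E. coli* (horizontal axis) for 80 ribosomal protein genes with at least 100 reads, as points with 95% counting intervals as bars, in panels for the small subunit (green), the large subunit (blue, split over both right panels) and the stalk (red). All points lie between -0.14 for *rpl-11.1* and 0.17 for *rpl-24.2*, and the widest bars belong to the genes with fewest reads, such as *rpl-37*.

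Among the 31 small-subunit genes the median log2 ratio was 0.023, with 25 above 0 and 6 below. The highest was *rps-16*, whose bacterial counterpart reaches the tRNA held on the small subunit, with 45383 reads on wild type and 55922 on *pdxH* (log2 ratio 0.11, interval 0.095 to 0.13). *rps-2*, a protein near the channel where the mRNA enters, had 78645 and 96135 reads (0.10). *rps-0*, whose mammalian counterpart is also known as the laminin receptor, had 97193 and 117356 (0.084). These 3 genes were the only small-subunit members above 0.07, and their ratios were folds of 1.06 to 1.08.

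Below 0, *rps-12* stood lowest of the small subunit, with 48035 reads on wild type and 51508 on *pdxH* (log2 ratio -0.087, interval -0.11 to -0.069). *rps-25*, which in yeast and mammals is needed for initiation at some viral internal entry sites, had 73011 and 80496 reads (-0.047). Raw reads were higher on *pdxH* for both genes because that library was 1.14 times as deep, and the scaled level was lower.

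Among other small-subunit genes with well-known products, *rps-6*, the substrate of S6 kinase, had 74166 and 85524 reads (log2 ratio 0.018). *rps-3*, which lines the mRNA entry channel, had 120162 and 138586 (0.018). *rps-23*, whose product lies close to the decoding site, had 83634 and 99000 reads (0.055), and *rps-14* had 71713 and 81413 (-0.0049). The zinc-binding protein gene *rps-27* had 22720 and 26755 reads (0.048). None of these 5 genes differed between the libraries by more than 4%, with folds from 0.997 to 1.04.

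The 47 large-subunit genes had a median log2 ratio of 0.021, with 32 above 0 and 15 below. *rpl-10*, whose protein is added late in the maturation of the large subunit in yeast, had 111876 reads on wild type and 137476 on *pdxH* (log2 ratio 0.11, interval 0.098 to 0.12). *rpl-27* had 68047 and 83224 (0.10), and *rpl-1*, the protein of the flexible arm at which spent tRNAs leave, had 61513 and 74838 (0.095). The level rank of *rpl-1* among the 81 genes moved from 59 to 52.

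*rpl-3*, with the most reads of any member, had 213692 on wild type and 242690 on *pdxH* (log2 ratio -0.0044, interval -0.013 to 0.0040). *rpl-2*, also next to the catalytic centre, had 106790 and 120446 (-0.014). *rpl-5*, which binds the 5S RNA together with the *rpl-11* product, had 82095 and 95799 (0.035). *rpl-7* and *rps-8*, among the 5 highest members per length, had 156896 and 177501 reads (-0.0099) and 131469 and 150769 reads (0.0097). For *rpl-3* and *rps-8* the interval included 0, and for *rpl-7* its upper end was -0.00014.

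At the low end of the large subunit, *rpl-11.1* had 14893 reads on wild type and 15370 on *pdxH* (log2 ratio -0.14, interval -0.17 to -0.11). *rpl-41.2*, which encodes a peptide of 22 residues, had 55906 and 58098 (-0.13, interval -0.15 to -0.12). *rpl-28* had 20335 and 22240 (-0.059). *rpl-37* had 905 and 954 (-0.11), and its interval of -0.24 to 0.019 included 0.

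The stalk of the large subunit recruits and activates the elongation factors, and consists of the base protein P0, made from *rla-0*, and copies of P1 and P2, made from *rla-1* and *rla-2*. *rla-0* had 134835 reads on wild type and 155165 on *pdxH* (log2 ratio 0.015, interval 0.0041 to 0.025). *rla-1* had 48447 and 50835 (-0.12, interval -0.14 to -0.10). *rla-2* had 18241 and 20403 (-0.026, interval -0.055 to 0.0025). The P0 gene and the P1 gene of the stalk lay on opposite sides of 0, and *rla-1* was the only stalk gene beyond 0.1.

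Per length, the levels fell into a dense main group and a thin tail. Of the 81 genes, 76 had a level above 800 in both libraries. In this group levels ran from 982 to 4905 on wild type, with a median of 2702, and from 976 to 4767 on *pdxH*, with a median of 2733. The highest was 5.00 times the lowest on wild type and 4.89 times on *pdxH*. The median level was 2638 on wild type and 2618 on *pdxH* for the 31 small-subunit genes, 2796 and 2842 for the 42 large-subunit genes of the group, and 2699 and 2486 for the 3 stalk genes. The threshold of 800 was set after the levels were seen.

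The order of the genes was nearly the same on both diets. On wild type the 5 highest levels were those of *rpl-41.2* (4905), *rpl-7* (4800), *rps-8* (4523), *rps-25* (4484) and *rps-23* (4262). On *pdxH* the same genes had 4475, 4767, 4554, 4340 and 4429, so that *rpl-7* came first. Ranks differed by more than 5 places for 3 members, *rla-1* (39 to 47), *rps-12* (47 to 55) and *rpl-1* (59 to 52). Across the 80 genes with at least 100 reads, Spearman's rho between the libraries' levels was 0.995. The log2 ratio itself had a rho of 0.058 with exon length and of 0.12 with the level on wild type. These are descriptions across genes within 1 pair of libraries, and genes are not independent replicates.

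**Figure D2:**
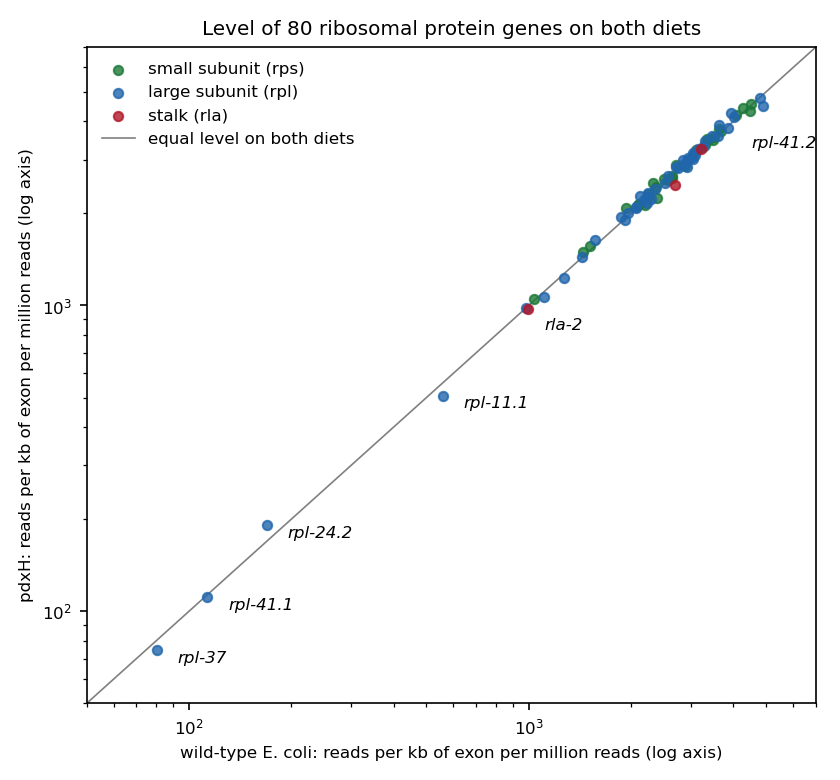
Level of 80 ribosomal protein genes with at least 100 reads, in reads per kilobase of exon per 1000000 reads, on wild-type *E. coli* (horizontal log axis) and *pdxH* (vertical log axis), coloured by subunit, with a line of equal levels. All but 4 genes lie above 800 on both axes, and every point is close to the line. *rpl-42*, with 3 and 5 reads, is not drawn.

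Of the 5 genes under that level, 3 were the less abundant genes of pairs with numbered symbols. For 1 of them, *rpl-24.2*, RefSeq gives the name of another protein, as described below. *rpl-11.1* (chromosome V, 3585312 to 3586064, build ce11) and *rpl-11.2* (chromosome X, 2241738 to 2242618) both encode proteins of 196 residues, which bind the 5S RNA. *rpl-11.2* had 81663 reads on wild type and 95324 on *pdxH* (log2 ratio 0.035, interval 0.022 to 0.049), opposite in direction to its minor copy. The share of *rpl-11.1* in the reads of the pair was 15.4% on wild type (exact binomial interval 15.2% to 15.7%) and 13.9% on *pdxH* (13.7% to 14.1%). The reads of the pair together gave a log2 ratio of 0.0092, with an interval of -0.0033 to 0.022. Per length, *rpl-11.2* stood 4.91 times above *rpl-11.1* on wild type and 5.55 times on *pdxH*.

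The *rpl-24* pair differed in the other direction. *rpl-24.2* (chromosome I, 9669415 to 9670098) had 4024 reads on wild type and 5173 on *pdxH* (log2 ratio 0.17, interval 0.12 to 0.23), the highest ratio of the members with at least 100 reads. *rpl-24.1* (chromosome I, 4585115 to 4586176) had 85342 and 95977 (-0.019, interval -0.032 to -0.0052). RefSeq lists *rpl-24.2* as *rsl-24D1*, the name of an assembly factor that in yeast holds the place of the mature protein until the particle has reached the cytoplasm. Its level of 170 and 191 lay far under that of *rpl-24.1*, by 22.7 times on wild type and 19.9 times on *pdxH*.

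The *rpl-25* copies were both abundant. Their protein, which RefSeq names *rpl-23A*, sits at the exit of the tunnel through which the new chain leaves. *rpl-25.1* (chromosome X) had 31500 reads on wild type and 37481 on *pdxH* (log2 ratio 0.063, interval 0.041 to 0.084). *rpl-25.2* (chromosome I) had 19783 and 22474 (-0.0040, interval -0.032 to 0.024). The share of *rpl-25.2* in the pair was 38.6% and 37.5%, the most even of the pairs.

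The *rpl-41* genes lie 699 bases apart on the same strand of chromosome I and both encode 22 residues. *rpl-41.1* (4789190 to 4789592) had 1524 reads on wild type and 1704 on *pdxH* (log2 ratio -0.027, interval -0.13 to 0.073). It supplied 2.65% and 2.85% of the reads of the pair, and *rpl-41.2* (4790292 to 4790642) supplied the rest. The summed ratio of -0.13 was therefore that of *rpl-41.2*. Unlike the *rpl-11* pair, this pair did not sum to a ratio near 0.

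*rpl-37* has no numbered partner by its symbol, but RefSeq calls it *rpl-37.2* and gives the name *rpl-37.1* to W01D2.1 (chromosome II, 14815518 to 14816140), which the rule left out and which was looked up after the values were seen. W01D2.1 had 33415 reads on wild type and 37692 on *pdxH* (log2 ratio -0.014, interval -0.035 to 0.0071). *rpl-37* (chromosome III, 3528642 to 3528917) has a single exon and lies within *pitp-1* on the opposite strand, sharing none of its exon bases. It supplied 2.64% and 2.47% of the reads of both genes. *rpl-42* (chromosome II, 11092713 to 11094022) had 3 reads on wild type and 5 on *pdxH*, at or near the detection limit of 3 reads, and its log2 ratio of 0.45 had an interval of -1.45 to 2.70. How reads that match both copies of a pair were counted is not given in the sources used here, so the division within pairs is uncertain.

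**Figure D3:**
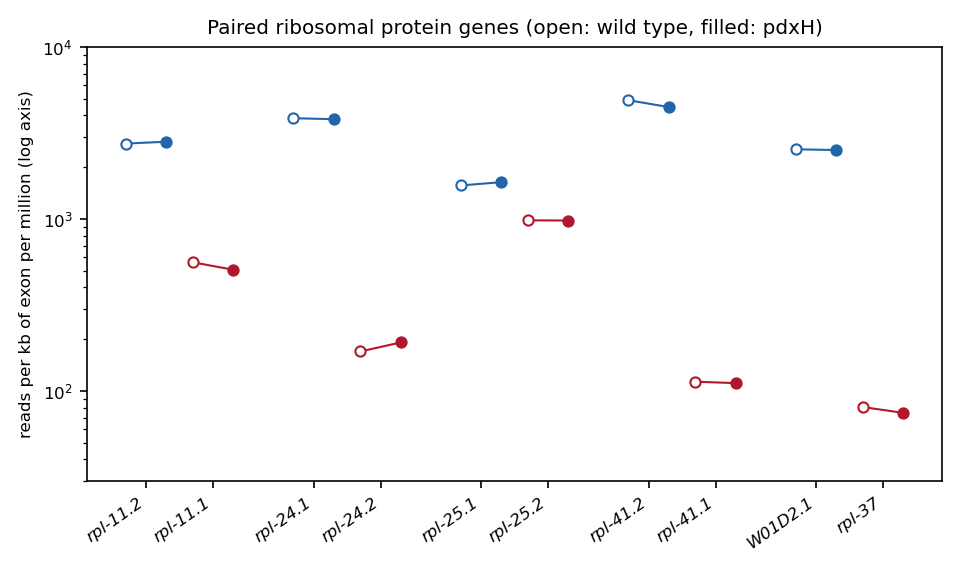
Level of both genes of 5 pairs in reads per kilobase of exon per 1000000 reads (log axis), with open circles for wild-type *E. coli* and filled circles for *pdxH*, the more abundant gene in blue and the other in red. The lines of *rpl-11.1* and *rpl-11.2* slope in opposite directions (559 to 507 and 2744 to 2812), as do those of *rpl-24.2* and *rpl-24.1* (170 to 191 and 3854 to 3805).

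The genes shared a compact structure. Their median exon length was 530 bases (236 to 1456), against 1163 over the 19901 protein-coding genes of the annotation. The median number of exons was 3 against 5, and the median protein length 147 residues against 330. They were spread unevenly over the chromosomes. Chromosome I held 25 of them (30.9%, against 14.4% of protein-coding genes), chromosomes III and IV held 18 each, II held 10, V held 8 and X held 2 (2.47% against 13.6%). Those on X were *rpl-11.2* and *rpl-25.1*, and each is the more abundant copy of a pair whose other copy is on an autosome.

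In 3 places members stood head to head as neighbours on opposite strands. *rps-10* and *rpl-24.1*, 609 bases apart, had log2 ratios of -0.0079 and -0.019. *rps-14* and *rpl-36*, 662 bases apart, had -0.0049 and 0.018. *rpl-39* and *rps-30*, 498 bases apart, had 0.071 and 0.021. The largest difference within these pairs was 0.050, that between *rpl-39* and *rps-30*.

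Many ribosomal protein genes carry small nucleolar RNA genes in their introns, whose products guide the modification of ribosomal RNA. In this annotation 13 members held 19 such genes, of the 346 in the genome. The 19 genes had 21 reads in total on wild type and 22 on *pdxH*, with at most 5 for a single gene in a library. They share no exon bases with their hosts, so these counts do not measure any part of the hosts' reads. The 13 hosts had a median log2 ratio of -0.0099 (-0.087 to 0.070), and the other members 0.021. Exon bases were shared with a neighbouring protein-coding gene by 13 members, with 50 bases at most. Whether strand was used in counting is not given in the sources used here, and reads in such overlaps cannot be assigned to one gene with certainty.

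The 70 genes for proteins of the mitochondrial ribosome had a median log2 ratio of -0.048, with 20 above 0 and 50 below, none past 0.5 in either direction and 37 within 0.1. Their SD was 0.14, and their summed reads were 102878 and 115608, far under those of the cytosolic set. The counting error of these genes is larger at this depth, and no test of the difference in spread was made. The 5 genes for ubiquitin fusions and proteins that bind the ribosome were all within 0.1, from -0.014 for *icd-2* to 0.064 for *rack-1*. Of these, *ubl-1* (0.011) and *ubq-2* (0.025) encode ribosomal proteins fused to ubiquitin, which the symbol rule left out. With both and W01D2.1 added, the median log2 ratio of the ribosomal protein genes was 0.020.

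Genes for factors that work on the ribosome lay to either side of 0. Of the 6 elongation factor genes, 5 had ratios above 0, with a median of 0.085. *eef-1A.1*, which delivers aminoacyl-tRNA, had 404913 reads on wild type and 495177 on *pdxH* (log2 ratio 0.10). *eef-1A.2*, which encodes the same factor, had 71132 and 73804 (-0.13). The division of reads between both genes is as uncertain as within the ribosomal protein pairs. The 34 genes matched by symbol as initiation factors had a median of -0.11, with 28 below 0. Among them *eif-6* (-0.24) is also counted in the list of ribosome biogenesis factors below. The one past -0.5 was *inf-1*, the RNA helicase eIF4A, with 10899 and 8500 reads (-0.55, interval -0.59 to -0.51).

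Genes for building ribosomes spread widely. The 27 genes matched by symbol to a list of ribosome biogenesis and nucleolar factors had a median log2 ratio of -0.16 with an SD of 0.27. Of these, 8 lay above 0, 19 below and 3 within 0.1. The highest was *gar-1* (378 and 553 reads, 0.36), in *C. elegans* the symbol of an acetylcholine receptor gene. It is not a biogenesis factor and was not taken out of the values of the list. The summed reads of the list, 120361 and 139827, gave a log2 ratio of 0.028, opposite in sign to the median. The 3 genes with most reads (*nog-1*, *lpd-7* and *byn-1*) lay above 0. *fib-1*, the methyltransferase fibrillarin that modifies ribosomal RNA, had 8419 reads on wild type and 6262 on *pdxH* (-0.61, interval -0.66 to -0.57). *nol-58*, a partner in the same particle, had 6648 and 5238 (-0.53), and these were the list's only genes past 0.5. At the other end, after *gar-1*, *lpd-7* had 16437 and 23276 reads (0.31) and *nog-1* had 26094 and 35809 (0.27). The 10 genes matched by symbol as subunits of RNA polymerases I and III, which transcribe the ribosomal RNAs, lay below 0 (median -0.18). The interval was wholly below 0 for 6 of them, *rpc-25* was at -0.0013 (-0.13 to 0.13), and none was past -0.5. The 31 aminoacyl-tRNA synthetase genes had a median of -0.028, with 14 above 0 and 17 below.

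**Figure D4:**
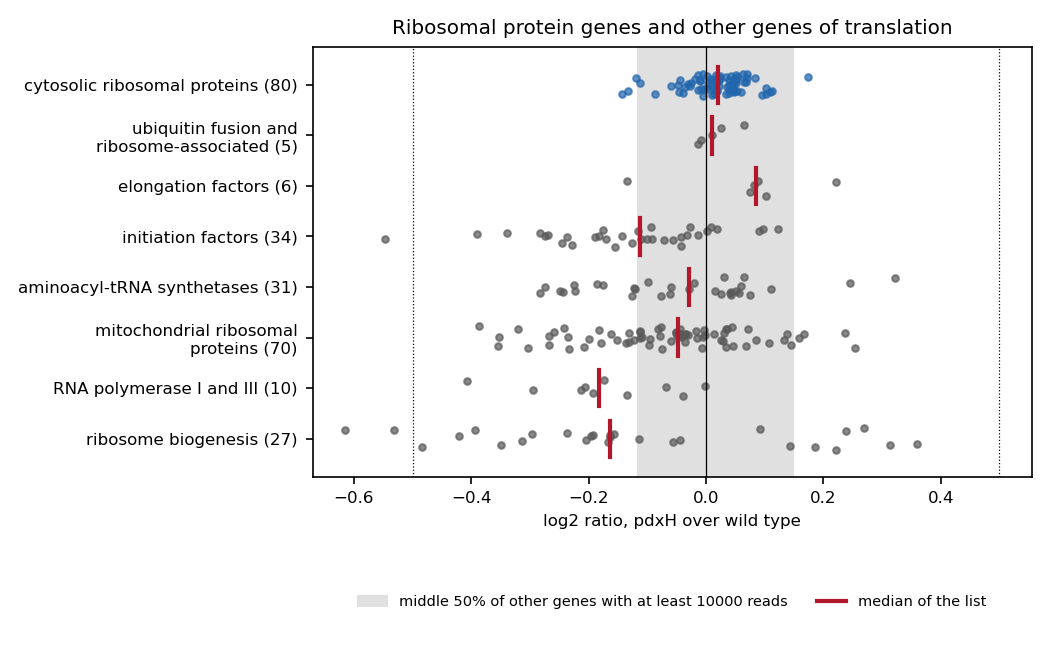
Log2 ratio of *pdxH* over wild-type *E. coli* for single genes (points) and list medians (red bars) of the 80 ribosomal protein genes with at least 100 reads (blue) and of 7 other lists of the translation apparatus (grey, number of genes in brackets). The grey band is the middle 50% of the other genes with at least 10000 reads, -0.12 to 0.15, and dotted lines mark -0.5 and 0.5. Ribosomal protein genes lie between -0.14 and 0.17, while the genes of the ribosome biogenesis list lie between -0.61 and 0.36. The upper end of that list is *gar-1*, an acetylcholine receptor gene matched by symbol, and the next highest is *lpd-7* at 0.31.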

How the data were processed

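Whole N2 worms of each diet gave 1 TruSeq library. Per the labels, the authors trimmed reads with Trimmomatic, aligned them to ce11 with STAR 2.5.3a and counted with HTSeq; GFOLD 1.1.4 made the comparison. The deposited signal of each gene equals reads per kilobase per 1000000 reads with a fixed length of 20 bases for every gene, so it carries no length correction. Dividing by its smallest step (1.23 and 1.08) returned reads, of which 97.8% and 97.6% were within 0.02 of a whole number. An exact binomial test on these reads with Benjamini-Hochberg adjustment, which compares the libraries and not the diets, called 3301 genes higher and 3326 lower on *pdxH* at an adjusted p of 0.05. The deposited columns of log2 fold changes, of the GFOLD score and of FDR values, made by the authors with GFOLD, hold their own comparison and were not used.

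Log2 ratios used the signal plus 1, with a threshold of 0.5; the study set 0.5 on the GFOLD score, which allows for counting error and is stricter than the ratio used here. Intervals are 95% Poisson rate-ratio intervals with a Jeffreys prior. PCR reads without molecular identifiers are not independent molecules. Levels used the union of annotated exons of WBcel235, the same assembly. Symbols came from the annotation for 44017 of 46904 genes. RefSeq symbols were matched by position for 80 of 81 members. Genes were named when among the 6 highest or lowest ratios with at least 100 reads, the 5 highest or lowest levels, pairs, stalk genes, well-known roles or genes under 100 reads; genes of other lists were named as examples after their values were seen. Members and lists were chosen with earlier results of these data known. Scripts, tested on simulated data, used Python 3.11.15, scipy 1.17.1, pandas 2.3.3 and edgeR 4.0.16. Promoter motifs and protein identity were not analysed here. Alternatives were other pseudocounts, scalings, thresholds, read minimums, gene lengths and member sets.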

Additional observations from a re-analysis of the deposited data

How the results depend on the processing

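No paired analysis was possible because a diet was read in a single library, and leaving out a library would end the comparison. The median log2 ratio of the ribosomal protein genes, 0.021, was 0.0165 after centring on all genes, 0.0148 after centring on genes with at least 1000 reads, 0.0178 with TMM factors, 0.0176 with median-of-ratios factors and 0.0239 with totals that leave out these genes. In the same order the small-subunit median was 0.0186, 0.0169, 0.0199, 0.0197 and 0.0259, and the large-subunit median 0.0168, 0.0150, 0.0180, 0.0178 and 0.0241. Under centring and under TMM or median-of-ratios factors, 55 members lay above 0 and 26 below; the genes that crossed were *rps-20*, *rpl-20* and *rpl-33*, all within 0.003 of 0 before. None of the 32 members covered by the naming rule changed sign under these scalings or other pseudocounts, and the largest move among those with at least 100 reads was 0.0059. The count past 0.5 became 1 higher with a pseudocount of 0.1 or a threshold of 0.25, which was *rpl-42* both times. The binomial test without a minimum size called 42 members higher and 12 lower.

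Over all genes, 4123 were over 0.5 and 4499 under -0.5. These became 1308 and 1879 with a pseudocount of 10, 1643 and 2101 with at least 10 reads, 619 and 1176 with at least 100, 32 and 85 with at least 10000 (chosen after seeing the data), 154 and 892 when a 1% tail of the ratio had to pass, 677 and 1360 with the binomial test added, and 2313 and 2812 at a threshold of 1. At 0.25 there were 6544 higher and 6148 lower, so the larger group was the higher one there and the lower one at 0.5.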

Other observations

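Reads on ribosomal RNA genes, the RNA partners of these proteins, fell on 4 of the 20 *rrn* genes listed. *rrn-3.1*, of the large-subunit RNA, had 46254 reads on wild type and 42370 on *pdxH* (log2 ratio -0.31, interval -0.33 to -0.30). *rrn-2.1* had 940 and 561 (-0.93), and both genes listed as *rrn-1.1* had ratios of -0.34 and -0.39. All 4 ratios were below 0, unlike the median of the protein genes. How far library preparation removed ribosomal RNA in each sample was not tested. How reads that match more than 1 of these genes were counted is not given in the sources used here.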
